A study of Mus musculus with 6 samples.

Results

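ATF4 binding in GCN2 KO mouse embryonic fibroblasts (MEFs) without leucine was compared with that in the same cells with leucine, using the annotated ATF4 ChIP-seq peak lists of the 2 conditions. The GCN2 KO +Leu list held 3566 peaks and the GCN2 KO -Leu list 2672, together 6238 of the 17462 peaks listed in the series. The cells were primary MEFs of genotype GCN2-/- and strain 129S6/SvEvTac. For 24 h they were given complete DMEM (+Leu) or DMEM that lacked leucine (-Leu), and chromatin was precipitated with the ATF4 antibody sc-200. Each list came from 1 library, for which chromatin of 2 independent experiments with at least 5 replicates each had been pooled, so no difference between the lists has a replicate check and no test was made. Wild-type (WT) MEFs of the same strain, given the same media, supply the other 2 lists and are used here only for comparison. As control for both GCN2 KO lists, the list headers name the input library of GCN2 KO cells grown with leucine. A +Leu peak was called kept when the center of a -Leu peak lay 300 bp or less from its own, and lost otherwise, and a -Leu peak without such a +Leu partner was called gained. These words describe list membership only, since a site absent from a list may still be bound below the peak caller's limit.

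GCN2 is a kinase that senses uncharged tRNA when amino acids are scarce and phosphorylates eIF2α, which lowers general protein synthesis while raising translation of the mRNA for the transcription factor ATF4. ATF4 is a bZIP protein that binds, together with partners such as the C/EBP proteins, to a composite element with the core TGATGCAA, and it controls genes of amino acid synthesis and uptake, tRNA charging and the stress response. Other eIF2α kinases, among them PERK, which responds to stress in the endoplasmic reticulum, can raise ATF4 without GCN2. The gene for GCN2, Eif2ak4, was not named as nearest to any peak in the 4 lists, and 0 of 16 fibroblast marker genes had a peak within 5 kb of the transcription start site (TSS) in either GCN2 KO list, so neither the genotype nor the cell type can be read from these lists.

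The element below many of the strongest kept sites is shown first, because the motif results turn on it. Each sequence is the mm10 reference (GRCm38), 5′ to 3′ on the strand of the element, with TGATGNAA in capitals, where N is any base. Strong kept sites that lacked TGATGNAA within 50 bp of either center, such as Arl14ep, Sfi1, Psat1 and the Eef1a1 promoter, are not shown. The first 6 belong to kept peaks and were taken from the strongest pairs that held the element.
Chac1 (chr2:119351035-119351070, minus strand): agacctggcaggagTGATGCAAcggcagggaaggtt
Ubr2 (chr17:46995100-46995135, plus strand): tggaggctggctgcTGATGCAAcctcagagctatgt
Creb3l1 (chr2:92055589-92055624, minus strand): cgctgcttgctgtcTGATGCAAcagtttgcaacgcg
Tgif1 (chr17:70837056-70837091, minus strand): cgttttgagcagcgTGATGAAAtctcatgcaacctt
Mthfd2 (chr6:83317166-83317201, minus strand): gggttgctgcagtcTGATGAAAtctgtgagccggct
Asns (chr6:7693211-7693246, minus strand): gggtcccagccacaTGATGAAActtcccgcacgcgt
The next 5 belong to lost peaks of genes that WT cells carried in both lists.
Eif4ebp1 (chr8:27261277-27261312, plus strand): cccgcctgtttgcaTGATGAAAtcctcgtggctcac
Kdm6b (chr11:69414533-69414568, plus strand): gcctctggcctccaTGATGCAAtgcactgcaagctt
Shmt2 (chr10:127521921-127521956, plus strand): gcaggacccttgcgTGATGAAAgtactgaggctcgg
Slc7a1 (chr5:148399486-148399521, minus strand): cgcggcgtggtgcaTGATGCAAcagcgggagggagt
Trib3 (chr2:152344025-152344060, plus strand): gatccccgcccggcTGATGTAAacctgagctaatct
The last 3 belong to gained peaks, among the few of these that had a WT partner.
H2afy3 (chr15:62569591-62569626, plus strand): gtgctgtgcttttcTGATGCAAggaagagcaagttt
Rcc2 (chr4:140699735-140699770, minus strand): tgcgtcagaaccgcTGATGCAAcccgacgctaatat
4930543E12Rik (chr7:113140131-113140166, minus strand): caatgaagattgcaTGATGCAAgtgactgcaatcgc
Of the 98 kept +Leu peaks, 8 lay on unplaced contigs and were not searched. Of the other 90, 21 had such an element within 80 bp of the center, of which 17 read TGATGCAA and 4 read TGATGAAA. As a background, 0.929% of 27025 RefSeq promoters of GRCm38.p6 (250 bases before to 50 after the TSS) held TGATGCAA on either strand, and 4.06% held TGATGNAA, which includes TGATGCAA. These windows are longer than those searched at kept peaks, of which only 10 of 98 were annotated at a promoter, so the shares are not directly comparable.

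Few sites were listed in both conditions. Of the 3566 +Leu peaks, 98 were kept (2.75%, 95% Wilson interval 2.26 to 3.34) and 3468 were lost. Of the 2672 -Leu peaks, 96 had a +Leu partner (3.59%, 2.95 to 4.37) and 2576 were gained. Counting error alone enters the intervals, and the depth of the libraries is unknown. The partner centers were mostly close together, with a median distance of 47.5 bp, 52 of 98 pairs within 50 bp and 69 within 100 bp. Beyond 300 bp the number of neighbors was low, with 11 +Leu peaks at 301 to 600 bp from the nearest -Leu center and 11 at 601 to 900 bp. The pairs just inside the limit, near 4930440C22Rik, Vmn1r3 and 1190005I06Rik, were 223, 247 and 271 bp apart with scores between 24 and 36. The peaks just outside it were 311, 344 and 356 bp from the nearest -Leu center, and the second of these, near Tiam1, scored 53 with leucine.

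**Figure D1:**
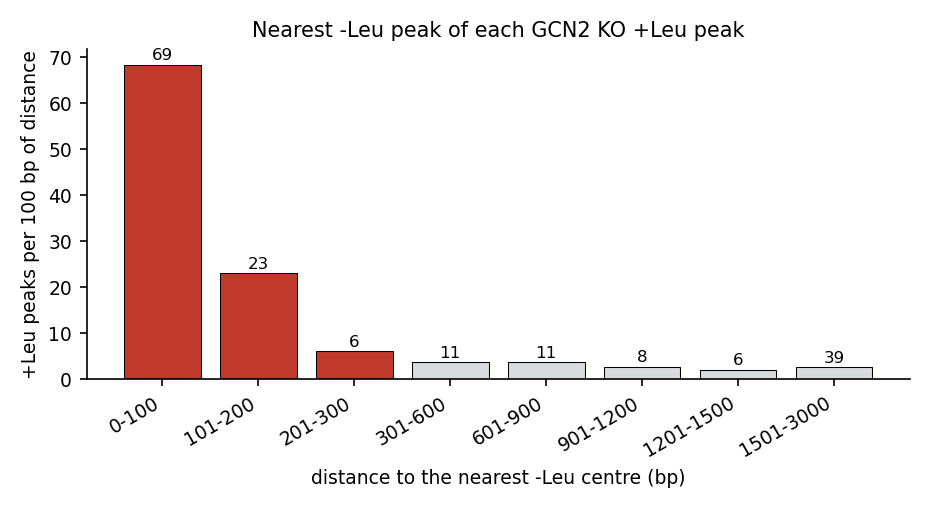
Distance in bp from each GCN2 KO +Leu center to the nearest -Leu center (horizontal axis) and number of +Leu peaks per 100 bp of distance (vertical axis), with the number of peaks above each bar and matched distances in red. The first bar holds 69 peaks, and beyond 300 bp no bar exceeds 4 peaks per 100 bp.

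Whether a peak was kept differed with its score, a whole number from 13 up that the peak caller gave and that is not normalized between libraries. In the +Leu list, 9 of the 10 peaks with a score of 200 or more were kept (90%, 59.6 to 98.2), and 12 of 22 with a score of 100 to 199 (54.5%, 34.7 to 73.1). Among scores of 50 to 99 the number was 13 of 142 (9.15%, 5.43 to 15), among 30 to 49 it was 32 of 1517 (2.11%, 1.5 to 2.96), and among 13 to 29 it was 32 of 1875 (1.71%, 1.21 to 2.40). Seen from the -Leu list, 5 of 5 peaks with a score of 200 or more and 7 of 8 with a score of 100 to 199 had a +Leu partner, against 24 of 1280 with a score of 13 to 29 (1.88%, 1.26 to 2.77). Seen from the +Leu lists, WT peaks were kept more often in these classes, 56 of 59 at 100 to 199 (94.9%, 86.1 to 98.3) and 83 of 283 at 50 to 99 (29.3%, 24.3 to 34.9). Seen from the -Leu lists the order was the opposite, since WT -Leu peaks had a +Leu partner in 143 of 303 at 200 or more (47.2%, 41.6 to 52.8) and 48 of 323 at 100 to 199 (14.9%, 11.4 to 19.2). The genotypes were not tested against each other. The intervals hold counting error alone, and a score class need not mean the same in both genotypes. A partner could have any score. Of the 32 GCN2 KO +Leu peaks with a score of 100 or more, 10 had a -Leu partner that also reached 100, 11 had a weaker one and 11 had none.

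**Figure D2:**
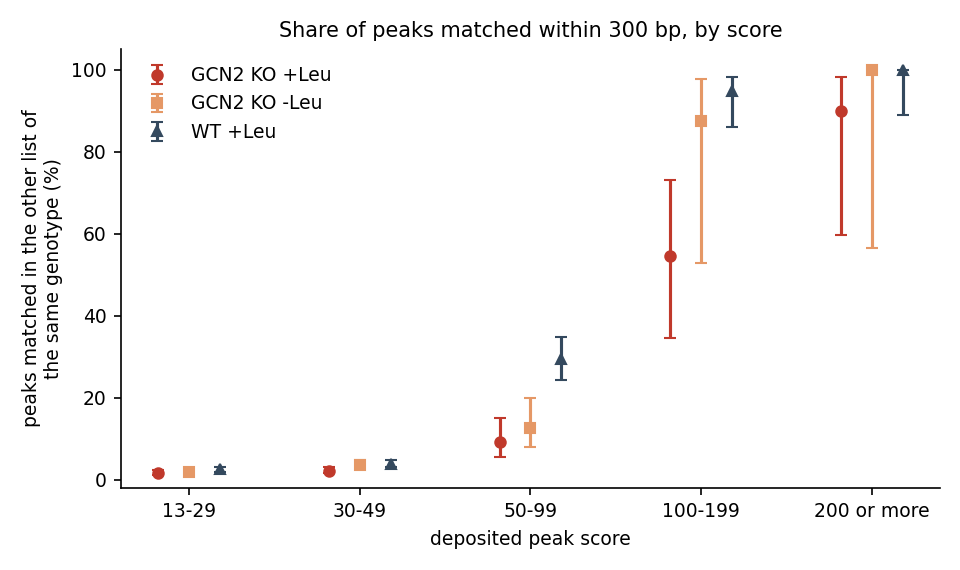
Percentage of peaks with a partner 300 bp or less away in the other list of the same genotype (vertical axis, bars are 95% Wilson intervals), by deposited score (horizontal axis), for GCN2 KO +Leu, GCN2 KO -Leu and WT +Leu peaks. In GCN2 KO +Leu the share goes from 1.71% in the lowest class to 90% in the highest.

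Genes of the stress response were among the highest-ranking kept genes, with Chac1 at rank 1 with leucine and Atf5 at ranks 7 and 5. Chac1, which encodes a glutathione-degrading enzyme, carried the highest score with leucine, 391, at chr2:119350903-119351203 in its promoter, and 184 without it (rank 7). The peak of Atf5, an ATF4-related bZIP factor, lay in an intron at chr7:44818971-44819271, centered at -2463 bp from the TSS, and scored 228 with leucine and 205 without. Arl14ep, a member of the stress response list, had a promoter peak at chr2:106974409-106974709 that scored 297 (rank 4) with leucine and 62 (rank 42) without. Ppp1r15b, the constitutive regulatory subunit of the phosphatase that reverses eIF2α phosphorylation, scored 140 and 66. All of these scored lower without leucine, Atf5 by the smallest margin. In WT cells the order of the scores was the opposite, with 1499 and 2515 for Chac1, 808 and 1569 for Atf5, 390 and 1582 for Arl14ep and 144 and 372 for Ppp1r15b, with and without leucine. The order of the WT ranks was not. Chac1 went from rank 1 to 2 without leucine, Atf5 from 4 to 9 and Ppp1r15b from 49 to 140, and only Arl14ep rose, from 15 to 8.

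Enzymes of amino acid synthesis and one-carbon metabolism formed the next group. Mthfd2, the mitochondrial folate enzyme, had almost equal scores at chr6:83317008-83317308 in its first intron, 209 with leucine (rank 9) and 208 without (rank 4). The promoter peak of Asns, which makes asparagine, at chr6:7693083-7693383, scored 184 with leucine (rank 11) and 41 without (rank 311, percentile 87.1 of its list). Psat1, of serine synthesis, had a promoter peak at chr19:15925040-15925340 with scores of 161 and 66. WT scores at the same genes were 635 and 1058 for Mthfd2, 746 and 1787 for Asns and 398 and 1050 for Psat1, so Asns went from the highest of these 3 genes in WT -Leu to the lowest in GCN2 KO -Leu.

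Sites were kept at 3 genes for aminoacyl-tRNA synthetases, which charge tRNA with amino acids. Yars, for tyrosine, scored 115 with leucine and 120 without, in a promoter peak at chr4:129189822-129190122, the only kept gene of the stress, synthesis and synthetase lists with a higher score without leucine. Sars, for serine, scored 123 and 62 at chr3:108444114-108444414 in its first intron. Aars, for alanine, scored 93 and 54 at chr8:111033596-111033896 in its promoter. Ranks showed the same pattern: Yars went from rank 28 to rank 11, Sars from 23 to 42 and Aars from 33 to 76. The transporter gene Slc7a5, whose product exchanges leucine for glutamine, kept an intronic site 9094 bp from the TSS, outside the 5 kb limit, with scores of 148 (rank 15) and 37 (rank 420).

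Several of the strongest kept sites lay far from any TSS. Ubr2, a ubiquitin ligase gene, had an intronic peak 15407 bp from the TSS at chr17:46994975-46995275 that ranked 2 with leucine (387) and 3 without (222). The peak nearest to Klhdc4, centered at -21555 bp from the TSS at chr8:121850974-121851274, scored 328 and 132. The CpG-rich intergenic site nearest to Creb3l1, a bZIP factor anchored in the endoplasmic reticulum, lay at -31442 bp from the TSS at chr2:92055462-92055762 and scored 262 and 228, ranks 5 and 2. The site nearest to Tgif1, a homeodomain repressor, was the one of these that scored higher without leucine. It lay at chr17:70836919-70837219 in a DNA repeat of the Tigger family, scored 259 with leucine and 353 without, and ranked 6 and 1. In WT the Tgif1 site scored 143 and 1391, so its GCN2 KO score exceeded the WT one with leucine and was far below it without. With Chac1, Arl14ep, Atf5 and Mthfd2, these distant sites made up the 5 highest-scoring pairs of either list.

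Other genes with a kept site near the TSS were less closely tied to amino acids. Sfi1, a centrosome gene, scored 202 and 190 in its first intron, with WT scores of 121 and 145 at that site. Eef1a1, which encodes a translation elongation factor, had a promoter site with 127 and 44 that was in no WT list and a second kept site in its first intron with 34 and 44. Eif1, a translation initiation factor, showed the largest fall in percentile of the 98 pairs, from a score of 127 (rank 20, percentile 99.5) to 20 (rank 2312, percentile 9.51). Acot2, a mitochondrial thioesterase, scored 104 and 44, and Gm5627 scored 143 and 39. Gm14164 scored 49 and 44 at a site 6024 bp from the lost promoter peak of Trib3. Further kept genes within the upper 10% of either list were Atp2b2, which scored 51 and 30, Itln1 with 45 and 32, and 6430706D22Rik with 33 and 44. In all, 21 pairs within 5 kb of a TSS reached the upper 10% of either list, of which 18 scored lower without leucine and 3 higher, and of the other 9 pairs 3 scored lower.

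Over all 98 pairs the ranks and scores were divided almost evenly between the conditions. The percentile was higher without leucine in 52 pairs and lower in 46, and the score was higher in 45, lower in 48 and equal in 5, with a median ratio of 1 (range 0.157 to 3.20). Among the 31 pairs that lay in both WT lists, the GCN2 KO score was lower without leucine in 20, higher in 10 and equal in 1 (median ratio 0.870), and the percentile was lower in 17 and higher in 14. By contrast the WT score of the same sites was higher without leucine in 29 and lower in 2 (median ratio 2.47), although the WT percentile was lower in 22 and higher in 9. Of the 19 pairs with TGATGNAA within 50 bp of the +Leu center, 15 scored lower without leucine, 3 higher and 1 equal (median ratio 0.581), against 19 of 19 higher in WT (median ratio 2.40). In percentile, which does not depend on the scale of a list, 13 of these 19 were lower without leucine in GCN2 KO and 13 of 19 also in WT. The counts by score thus ran in opposite directions in the 2 genotypes, and those by percentile in the same direction, for both sets of pairs. Scores are not normalized, and depth and binding cannot be told apart here.

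The 59 pairs in no WT list behaved otherwise. Their median score was 30 with leucine and 30 without, 27 scored higher without leucine, 28 lower and 4 equal, and the 2 scores were almost unrelated across pairs (Spearman's rho 0.07, n = 59 pairs from the same 2 libraries). Among the 31 pairs in both WT lists the rho was 0.55, with a median score of 126 with leucine and 64 without. The 8 pairs in 1 WT list only all scored higher without leucine, with medians of 34.5 and 53.5. They include sites on an unplaced contig and at the ribosomal RNA gene, described further on.

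**Figure D3:**
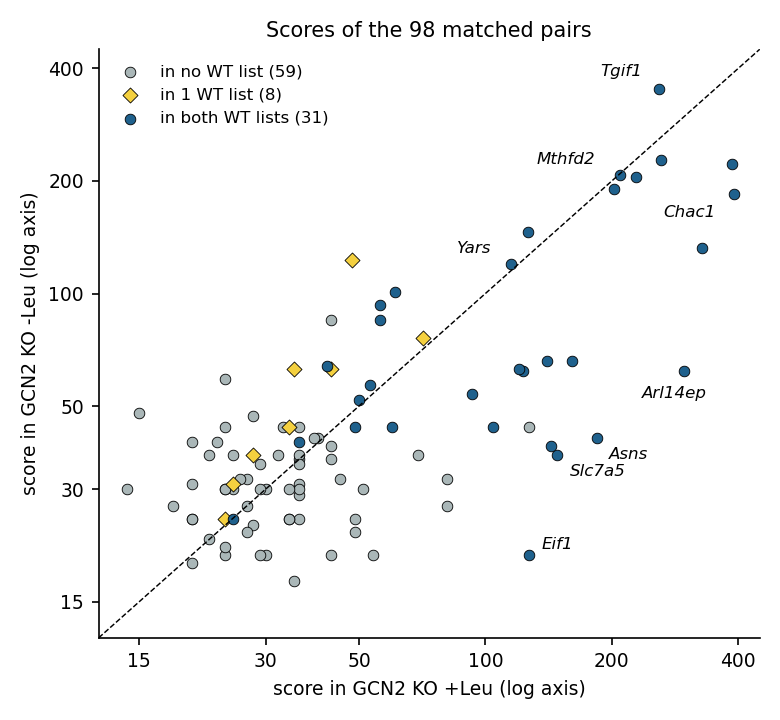
Score of each of the 98 matched pairs with leucine (horizontal log axis) and without leucine (vertical log axis) in GCN2 KO, colored by the number of WT lists with a peak 300 bp or less away; the dashed line marks equal scores. Of the 31 pairs in both WT lists, 20 lie below the line, and Tgif1 lies highest at 353.

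At the level of genes, 577 had a +Leu peak within 5 kb of the TSS and 413 a -Leu peak. Of these 49 were kept, 528 lost and 364 gained. The +Leu list was the longer one, and cut by score to the length of the -Leu list it gave 39 kept, 393 lost and 374 gained. Among protein-coding genes, 2.27% of 21887 had a +Leu peak, 1.61% had a -Leu peak, and 7.86% of the 496 with a +Leu peak also had a -Leu peak. For 29 of the 49 kept genes a matched pair was the reason. Within 5 kb the other 20 had only peaks at different sites, all but Rn45s with scores under 50 in both lists. A larger share of the kept genes was found in WT, where 27 of 49 had a peak in either WT list (55.1%, 41.3 to 68.1), against 108 of 528 lost genes (20.5%, 17.2 to 24.1) and 66 of 364 gained genes (18.1%, 14.5 to 22.4).

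The strongest lost peaks included genes of translation control, mitochondrial metabolism and amino acid transport. Eif4ebp1, a repressor of cap-dependent translation that mTORC1 controls, ranked 8 with leucine, with a score of 211 at chr8:27261134-27261434 in its first intron. In WT it scored 137 with leucine and 500 without. The mitochondrial chaperone gene Hspa9 followed with 163 in its promoter, Kdm6b, a histone H3K27 demethylase gene, with 128, and Shmt2, the mitochondrial serine hydroxymethyltransferase, with 120. Further lost genes were Vldlr, a lipoprotein receptor, with 111, Pck2, the mitochondrial PEP carboxykinase, with 110, the cationic amino acid transporter Slc7a1 and the stress-induced chromatin factor Nupr1 with 77 each, and the pseudokinase Trib3 with 58. With Pisd-ps3 at 108, on an unplaced contig, and Tmem200c at 82, these include the 10 strongest lost genes by peaks within 5 kb of a TSS. Lost peaks outside that limit, or at genes that kept another peak, included those nearest to Pisd-ps3 with 154 and Serpinh1 with 142, and 2 at Rn45s with 120 and 116, which were named after their values were seen. Of the 11 lost peaks with a score of 100 or more, 9 had a WT partner, 6 lay at an annotated promoter or within 1 kb of a TSS, and 5 held TGATGNAA within 50 bp of the center. Of all 3468 lost peaks, 97 had a WT partner (2.80%, 2.3 to 3.4).

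Few gained peaks had a high score. Only 1 scored 100 or more, nearest to Rpp21 (named after its value was seen) with 107, against 11 lost peaks. At 50 or more the shares were alike, 104 of 2576 gained (4.04%, 3.34 to 4.87) and 140 of 3468 lost peaks (4.04%, 3.43 to 4.74), and at 30 or more they were 51.2% and 46.9%. Within 5 kb of a TSS the highest was Cdhr2, a cadherin-family gene, with 76 in its promoter, followed by Gm11562 with 72, Clec11a with 69, 4930478P22Rik and Egfem1 with 62 each and Gpx5 with 61. None of these 6 had a WT peak within 5 kb. The next, at 59 each, were Rcc2, named for a regulator of chromosome condensation, 4930543E12Rik, and Castor1, listed as Gatsl3, the cytosolic arginine sensor of the mTORC1 pathway. Rcc2 scored 199 and 554 in WT and 4930543E12Rik 251 and 972, and both gained sites held TGATGCAA, as shown above. Castor1 had a WT +Leu peak of 32 and no WT -Leu peak within 5 kb. That WT peak was at a different site, 2820 bp from the TSS, whereas the gained peak was at -2225 bp. Rpl13a, for a ribosomal protein, completed the strongest 10 with 58. Distant gained sites with high WT scores were those nearest to H2afy3 (76 in GCN2 KO -Leu, 176 and 981 in WT), Arhgap35 (73, then 93 and 701) and Mtx2 (58, then 234 and 1407), which were named after their values were seen. Of all 2576 gained peaks, 75 had a WT partner (2.91%, 2.33 to 3.63), a share like that of the lost peaks.

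The 10 gene lists, of 255 genes in all, were read against the 2.27% and 1.61% of protein-coding genes with a peak. Of the 255, 32 had a +Leu peak (12.5%) and 18 a -Leu peak (7.06%), and 12 were kept, 20 lost and 6 gained. Integrated stress response genes were the most often listed, 11 of 28 with leucine and 5 without, with 4 kept, 7 lost and 1 gained. This list holds genes that the study named from these samples, such as Arl14ep, Kdm6b and Bhlha15, so its count is not independent evidence. The same holds for the synthetase and synthesis lists, where the study named Gars, Iars, Yars, Asns and Psat1. It also holds for the mTORC1 list with Eif4ebp1 and the bZIP list with Atf5 and Ddit3. All 10 lists were chosen with earlier results of these data known, so the total over the 255 genes is not independent evidence either. Aminoacyl-tRNA synthetases numbered 9 of 38 with leucine and 4 without, with 3 kept, 6 lost and 1 gained. Amino acid synthesis and one-carbon enzymes numbered 4 of 24 in each condition, with 3 kept, 1 lost and 1 gained. Of 27 amino acid transporters, 3 were lost, 1 was gained and none was kept. Of 46 bZIP factors, 5 were listed in each condition and 3 were kept, while mTORC1 and amino acid sensing had 1 lost and 1 gained of 27. Of 21 genes of the endoplasmic reticulum chaperones and unfolded protein response 1 was lost and none was kept or gained. No gene of the 27 for autophagy and lysosome had a peak within 5 kb in either condition. Among 15 markers of other cell types, Epcam and Cd3e had a +Leu peak, with scores of 27 and 26, and no WT or -Leu peak.

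The lost members of these lists were nearly all WT targets. Of the 20, 16 had a peak in both WT lists, 1 in a single one and 3 in neither. The WT score was higher without leucine in 16 of 16, but scores are not normalized. Among the members named above as strongest lost genes, the WT percentile was lower without leucine for Eif4ebp1, Shmt2, Slc7a1 and Nupr1. For Kdm6b and Trib3 it was higher. In GCN2 KO +Leu the 20 lost members scored 20 to 211. Their median was 40, below the 150.5 of the 12 kept members. The lost synthetases were Iars with 47, Gars with 44, Mars with 43, Nars with 40, Lars with 36 and Wars with 29, all near the TSS. The lost transporters were Slc7a1 with 77, Slc38a2, a sodium-coupled neutral amino acid carrier, with 34 and Slc1a4 with 28. Ddit3, which encodes CHOP, scored 40, Herpud1, of the degradation of misfolded proteins, 28, and Bhlha15 20. WT -Leu scores at these genes reached 736 for Ddit3, 866 for Herpud1, 662 for Iars and 621 for Mars.

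The 12 kept members included 10 with a peak in both WT lists, of which 9 scored lower without leucine in GCN2 KO and Yars higher (median ratio 0.488), whereas all 10 scored higher without leucine in WT (median ratio 2.47). The contrast was in scores, which are not normalized. By percentile within a list, only Asns and Arl14ep of these 10 were higher without leucine in WT. In GCN2 KO only Yars, Mthfd2 and Atf5 were higher by percentile. The other kept members were Mafg and Mafk, small Maf bZIP factors, whose peaks lay at different sites in the 2 conditions and scored at most 32. The 6 gained members included Castor1 with 59, Vars2 with 25, Cebpg, an ATF4 partner, with 20, Slc7a5 with 19 within 5 kb and Atf6b with 18. Of these Cebpg had a peak in both WT lists, with 103 and 559. A TGATGNAA element lay within 50 bp of the center at 6 of the 12 kept, 12 of the 20 lost and 2 of the 6 gained members. Larp1 encodes a repressor of the translation of terminal oligopyrimidine mRNAs. It was not named as nearest to any peak in either GCN2 KO list. WT cells had 3 such peaks with leucine and 2 without it. By ChIP-qPCR with another ATF4 antibody, the study reported more binding without leucine at the Larp1 and Ddit3 promoters in GCN2 KO MEFs too. The rise there was smaller than in WT.

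**Figure D4:**
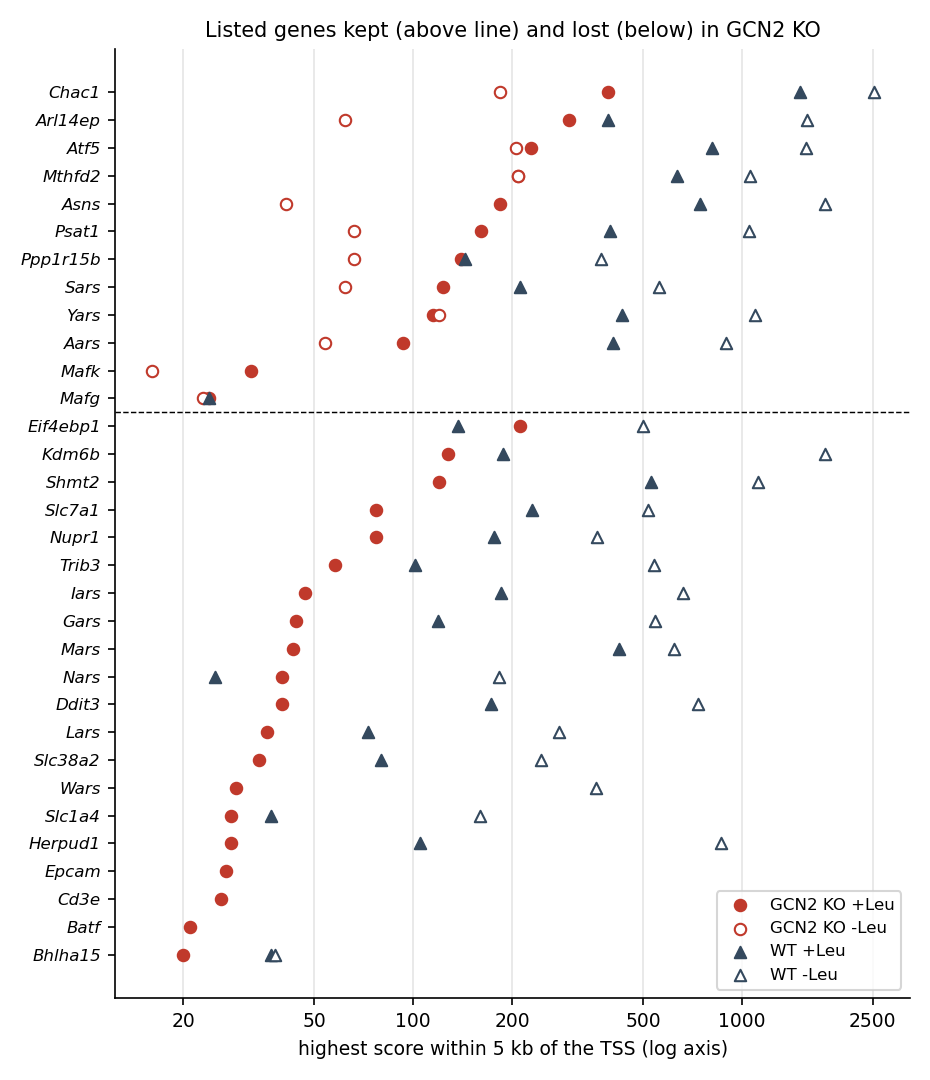
Highest deposited score within 5 kb of the TSS (horizontal log axis) in each of the 4 lists for the 12 kept (above the dashed line) and 20 lost (below) members of the gene lists in GCN2 KO. Circles are GCN2 KO and triangles WT, filled with leucine and open without, and a missing symbol means no peak; open circles lie left of filled ones for every kept gene but Yars.

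The share of peaks with the ATF4-type element was highest at sites shared with WT. TGATGCAA lay within 50 bp of the center in 15 of 90 kept +Leu peaks on assembled chromosomes (16.7%, 10.4 to 25.7), in 23 of 3459 lost peaks (0.665%, 0.443 to 0.996) and in 14 of 2570 gained peaks (0.545%, 0.325 to 0.912). In windows of the same width 1 kb to either side it was found in 0 of 180 (where 3 counts, taken as the limit that a count of 0 allows, would be 1.67%), 14 of 6918 (0.202%) and 13 of 5140 (0.253%). With TGATGNAA the kept share was 21.1% (19 of 90, 14 to 30.6), and all 19 lay in both WT lists. It was present in 19 of 28 kept peaks in both WT lists (67.9%, 49.3 to 82.1) and in 0 of 55 in no WT list, where 3 counts would be 5.45%. Lost peaks with a WT partner held it in 24 of 94 (25.5%, 17.8 to 35.2), and those without in 36 of 3365 (1.07%, 0.774 to 1.48), where the windows 1 kb away gave 1.20%. Gained peaks with a WT partner held it in 8 of 75 (10.7%, 5.50 to 19.7) and those without in 34 of 2495 (1.36%, 0.977 to 1.90), where the windows gave 1.64%. The peaks of either condition without a WT partner, 3371 lost and 2501 gained, thus held the element at shares close to those of their surroundings.

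**Figure D5:**
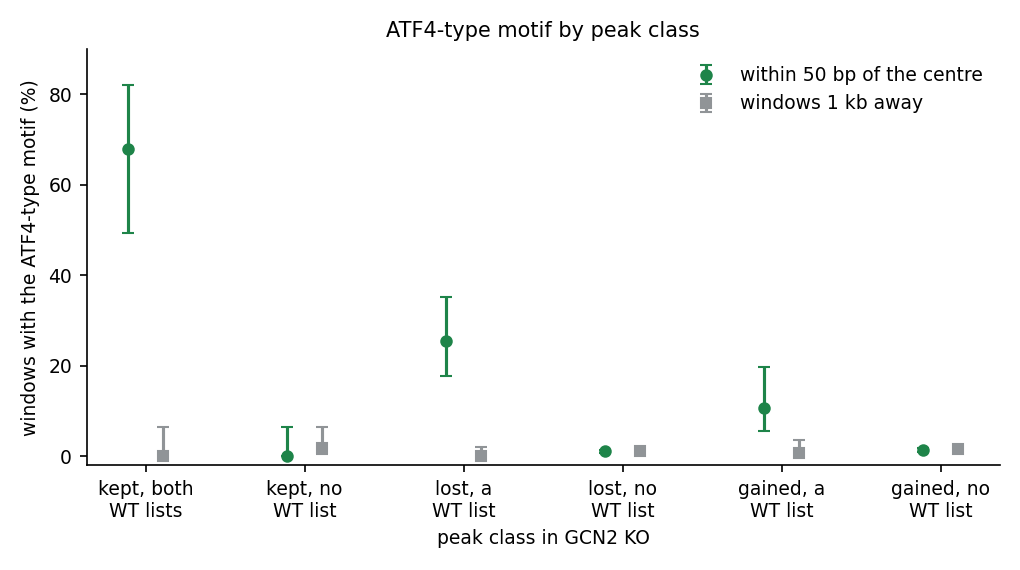
Percentage of windows with TGATGNAA on either strand (vertical axis, bars are 95% Wilson intervals) within 50 bp of the peak center and in windows of the same width 1 kb away, by GCN2 KO peak class and presence of a WT partner (horizontal axis). The share is 67.9% in kept peaks of both WT lists, 25.5% in lost and 10.7% in gained peaks with a WT partner, and under 2% in the classes without one.

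Other bZIP elements were searched in the same windows. The cyclic AMP response element TGACGTCA was found within 50 bp of the center in 0 of 90 kept (3 counts would be 3.33%), 2 of 3459 lost and 2 of 2570 gained peaks. The AP-1 element TGANTCA was present in 5 of 90 kept peaks (5.56%, 2.40 to 12.4), 77 of 3459 lost (2.23%, 1.78 to 2.77) and 66 of 2570 gained (2.57%, 2.02 to 3.25), beside 2.78%, 2.44% and 2.65% in the windows 1 kb away. It was present in 3 of 28 kept peaks of both WT lists (10.7%, 3.71 to 27.2) and in 1 of 55 of no WT list (1.82%, 0.322 to 9.61), intervals that overlap. Among 27025 RefSeq promoters, 1.88% held TGACGTCA and 7.93% TGANTCA.

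A larger share of kept than of lost or gained sites lay at promoters. Peaks that carried a promoter annotation or lay 1 kb or less from a TSS made up 17 of 98 kept +Leu peaks (17.3%, 11.1 to 26), 171 of 3468 lost (4.93%, 4.26 to 5.70) and 111 of 2576 gained (4.31%, 3.59 to 5.16). Within the kept class this came from the sites shared with WT, of which 12 of 31 were at promoters (38.7%, 23.7 to 56.2), against 4 of 59 in no WT list (6.78%, 2.67 to 16.2). Introns held 30.6% of kept, 44.6% of lost and 42.9% of gained peaks, and intergenic regions 46.9%, 41.3% and 42.5%. CpG islands were named for 4 of 98 kept, 21 of 3468 lost and 15 of 2576 gained peaks.

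Repeated DNA contributed a separate group of kept sites. Of the 98 pairs 23 were annotated as repeats (23.5%, 16.2 to 32.8), a share like that of lost (21.8%) and gained peaks (21.8%), and 8 lay on unplaced contigs, 6 of these on JH584304, where Pisd-ps3 is the nearest gene. At ribosomal RNA 3 pairs were matched, and all 3 ranked higher without leucine. The strongest lay in a ribosomal RNA repeat nearest to Axin2 (named after its values were seen) at chr11:109011695-109011995, with a score of 126 with leucine and 146 without, ranks 22 and 8. At Rn45s on chromosome 17 the +Leu peaks scored 120, 116, 43 and 35, and the -Leu peaks 96 and 63, and the 2 weakest +Leu peaks were both matched to the -Leu peak of 63. On JH584304 the score was higher without leucine in 5 of 6 pairs, among them 48 and 123, 56 and 93, and 61 and 101. Reads from such copies can be placed at more than 1 position, and how the reads were assigned there is not given in the sources used here. Leaving out unplaced contigs and repeats, as an alternative added after the data had been seen, left 69 kept peaks of 2773 (2.49%), of which 34 ranked higher without leucine, against 52 of 98 in all.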

How the data were processed

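ATF4 ChIP-seq was measured in MEFs with 1 library per condition. According to the study's methods and the submitters' processing notes, the authors aligned 50 bp single reads to mm10 with BWA 0.7.12, called peaks with MACS2 2.1.0 (false discovery rate 0.05) using the genotype's own input library as control, and annotated summit windows of ±150 bp with HOMER 4.7. The deposited lists carry a score per peak, a whole number of 13 or more whose scale is not given in the sources used here and which is not normalized between libraries. They also hold the signed distance in bp from a TSS and, as deposited fraction values, base composition (GC, CpG). The 2 input libraries were not analysed here. Depth is unknown.

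Peaks were matched at 300 bp or less between centers, genes were assigned from the listed distance to the TSS (5 kb), and percentiles were ranks of the score within a list, ties sharing their mean rank. Motifs were searched on both strands of GRCm38.p6 for the windows on chromosomes 1 to 19, X and Y, whose listed GC content all equalled that of the reference (3549 and 2658 GCN2 KO peaks). Shares carry 95% Wilson intervals, and a count of 0 is given with the share that 3 counts would make. With 1 library a side no test was made. On simulated data, the matching step found 100 of 100 planted pairs and the motif search 200 of 200 planted motifs. The members and gene lists were chosen with earlier results of these data known. Named genes were those with a matched pair of which a peak lay within 5 kb, the 10 with the highest-scoring peak within 5 kb among lost and among gained genes, listed genes with a GCN2 KO peak, Larp1, Eif2ak4, and the genes nearest to the 5 highest-scoring pairs. Alternatives were other distances (100 and 1000 bp), TSS windows (1 and 10 kb), a score of 30 or more, lists of equal length, assembled chromosomes only, TGATGNAA, a motif window of 150 bp and annotated promoters only. Tools were pandas 2.3.3 and numpy 2.4.6 under Python 3.11.15, pysam 0.24.0, scipy 1.17.1, samtools 1.23.1 and matplotlib 3.10.9. A few genes and sequences that the rule would name are not reported here.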

Additional observations from a re-analysis of the deposited data

Results flagged for a closer look

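In GCN2 KO, 7 counts had a smaller value without leucine than with it, and a larger one in WT. With 1 library per condition the difference between the genotypes was not tested, and depth cannot be told apart from binding. The ratio of -Leu to +Leu was 0.749 for peaks (2672 over 3566), against 1.31 in WT. For target genes within 5 kb it was 0.716 (413 over 577), against 1.43 (1111 over 776) in WT. The study reported the same number of target genes for each list except WT -Leu. Its number there was smaller, which would make the WT ratio smaller. The widest gap was at scores of 100 or more, where the ratio was 0.406 in GCN2 KO (13 over 32) and 6.96 in WT (626 over 90). For peaks annotated at a promoter the ratios were 0.711 and 2.13, and for peaks that held TGATGCAA in the central 50 bp on either side 0.763 and 3.37. Peaks in repeats gave 0.745 and 1.13, and peaks in CpG islands 0.76 and 1.41. In GCN2 KO the 7 ratios thus lay in a narrow range for all classes but the highest scores, whereas those in WT spread from 1.13 to 6.96.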

How the results depend on the processing

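The kept share of 2.75% was 1.93% at 100 bp, 3.51% at 1000 bp and 3.59% when counted from the -Leu list, and lay between 2.49% and 3.25% in the other 4 settings. Kept, lost and gained genes numbered 17, 168 and 109 at 1 kb from the TSS and 91, 831 and 588 at 10 kb. They numbered 23, 247 and 184 with a score of 30 or more in both lists. With the +Leu list cut by score to the length of the -Leu list they numbered 39, 393 and 374. Without unplaced contigs and repeats, a setting added after the data had been seen, 34 of 69 pairs ranked higher without leucine, against 52 of 98, so that the majority turned. The motif share of lost peaks was 1.27% within 150 bp and 1.73% with TGATGNAA, and that of gained peaks 1.63% with TGATGNAA. With annotated promoters only, the promoter shares were 10.2% for kept, 2.1% for lost and 1.90% for gained peaks. The share with a WT partner was 2.05% for lost and 1.48% for gained peaks at 100 bp, 4.84% and 5.67% at 1000 bp, and with a score of 30 or more in all lists 61.8% for kept and 2.24% for gained peaks. The cause of these moves was not tested. In every setting tried the kept class had the largest share with the motif, at promoters and with a WT partner. No paired analysis was possible because each condition had 1 library. Scores were tied for many peaks (442 of 2672 -Leu peaks scored 25), which limits the resolution of ranks below the top, and the unknown depth limits any comparison of numbers or scores between the lists.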

Other observations

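Large changes of place within the list, like that of Eif1, were also seen at kept sites without a WT partner, which were chosen after their values were seen. The intronic site nearest to Slco4a1, an organic anion transporter gene, went from percentile 0.883 with leucine to 94.4 without, with scores of 15 and 48. The site nearest to Col16a1, a fibril-associated collagen gene expressed in connective tissue, went from percentile 97.0 to 9.51, with scores of 54 and 20. Neither held TGATGNAA within 50 bp of the center. At the lower end of the lists a few units of score span most of the percentiles, since the median +Leu score was 29.

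At genes listed in both conditions without a matched pair within 5 kb of the TSS the scores were low, apart from Rn45s. Mknk2, a kinase of the translation factor eIF4E, scored 15 with leucine and 42 without at different sites, and Engase, of glycoprotein turnover, 28 and 42. Higher with leucine were Mast3 with 36 and 25 and Ltf, lactoferrin, with 30 and 16. None of these 4 genes had a WT peak within 5 kb.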
